A study of Homo sapiens with 6 samples.

Results

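The 10 genes described here encode alpha tubulin (TUBA1A, TUBA1B, TUBA1C and TUBA4A) and beta tubulin (TUBB, TUBB2A, TUBB2B, TUBB3, TUBB4B and TUBB6), and they are 10 of the 58884 genes for which an estimated read count was deposited. They were taken by gene name. The family was chosen by the fold changes of an earlier comparison of the same libraries, in which TUBA1C and genes annotated to the microtubule-based process had stood out, so the differences between groups given for it are a description and carry no test. RNA-seq was carried out on a human immortalized ventricular cardiomyocyte line that received either a negative control siRNA (group NC, n = 3 libraries) or one directed at CIRBP, the cold-inducible RNA-binding protein (group SiCIRBP, n = 3 libraries). The labels name the line T0519 whereas the text of the study names AC16, another immortalized ventricular line. Neither the age of the cultures nor the time after transfection is stated in the sources used here, and nothing says that the libraries came from separate cultures, so p-values measure only the spread between these libraries, which may be technical.

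Alpha and beta tubulin form the heterodimer from which microtubules are built, and each is encoded by several genes, the isotypes, whose proteins differ mainly in the tail at the C-terminus. Cells hold the amount of tubulin mRNA in check by a process called autoregulation, in which the opening residues of the nascent protein are recognised on the ribosome by TTC5 and, when free dimers are plentiful, the mRNA is degraded. In cardiomyocytes the microtubule network contributes to the stiffness of the cell, and it is the target of antimitotic drugs in dividing cells. TUBA1A, TUBB2B and TUBB3 are best known from developing neurons, TUBB4B from cilia and most other tissues, and TUBA4A is the alpha isotype made without the terminal tyrosine.

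The coding start is shown because the autoregulation signal lies there. The first 12 coding bases of the principal GENCODE 29 transcript of each gene (GRCh38) are given below 5′ to 3′, with the codon at position 4 in capitals.
TUBA1A: atgcgtgagTGC
TUBA1B: atgcgtgagTGC
TUBA1C: atgcgtgagTGC
TUBA4A: atgcgtgaaTGC
TUBB: atgagggaaATC
TUBB2A: atgcgcgagATC
TUBB2B: atgcgtgagATC
TUBB3: atgagggagATC
TUBB4B: atgagggaaATC
TUBB6: atgagggagATC
The codon in capitals was TGC in all 4 alpha genes and ATC in all 6 beta genes. In all 4 alpha genes an intron interrupts these 12 bases, and it does so in none of the 6 beta genes.

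The coding end is shown because isotypes differ there and because it bears on which counts can be told apart. The last 60 coding bases are given for 4 of the beta genes, with the stop codon in capitals.
TUBB2A: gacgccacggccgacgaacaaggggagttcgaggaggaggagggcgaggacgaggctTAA
TUBB2B: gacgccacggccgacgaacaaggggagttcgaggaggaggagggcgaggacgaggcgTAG
TUBB3: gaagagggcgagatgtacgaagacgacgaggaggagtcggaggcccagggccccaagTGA
TUBB4B: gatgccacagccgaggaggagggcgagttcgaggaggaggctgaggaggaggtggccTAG
TUBB2A and TUBB2B differed at 2 of these 60 positions, counted without alignment, while TUBB2A and TUBB4B differed at 15 and TUBB2A and TUBB3 at 32. Over the whole coding sequence, identity was 97.2% between TUBA1A and TUBA1B, 96.8% between TUBA1B and TUBA1C, 98.1% between TUBB2A and TUBB2B and 84.4% between TUBB and TUBB4B.

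On GRCh38, 3 of the alpha genes lie side by side on chromosome 12. TUBA1B spans chr12:49127782-49131397 on the minus strand, TUBA1A chr12:49184796-49189324 on the minus strand, and TUBA1C chr12:49188736-49274603 on the plus strand, where it overlaps TUBA1A on the opposite strand. TUBA4A lies at chr2:219249711-219278170 on the minus strand. Of the beta genes, TUBB lies at chr6:30720201-30725426 on the plus strand, TUBB2A at chr6:3153669-3157526 and TUBB2B at chr6:3224261-3231730, both on the minus strand. TUBB3 lies at chr16:89921392-89938761, TUBB4B at chr9:137241213-137243707 and TUBB6 at chr18:12307669-12344320, all on the plus strand. The principal transcript of each of the 10 genes has 4 exons.

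Each library held between 25726259 and 29919566 estimated counts. CIRBP was lower in every SiCIRBP library (24.3 to 54.8 normalized counts, CPM) than in every NC library (85.8 to 90.95). The study left out the libraries NC_1 and SiCIRBP_2, reporting that these differed most. The Pearson correlation of SiCIRBP_2 with the others was 0.960 to 0.975 across genes, while the other pairs of libraries had 0.981 to 0.997. The pairs of NC_1 with NC_2 (0.994), NC_3 (0.993), SiCIRBP_1 (0.991) and SiCIRBP_3 (0.990) lay within that range. SiCIRBP_2 had a summed level of 13 interferon-stimulated genes of 4675 CPM, against 174 to 832 in the other 5 libraries. Of 12 cardiomyocyte markers, 7 had at most 3 counts in any library (TNNT2, MYH6, MYH7, MYL2, TTN, RYR2 and NPPB), and the 12 summed to 111 to 142 CPM in NC and 74.6 to 103 in SiCIRBP, without overlap. Most of each sum was GATA4, at 87.3 to 111 CPM in NC and 47.4 to 84.6 in SiCIRBP. Of the 4 tested, NKX2-5 (-1.24) and GATA4 (-0.41) were past the threshold and lower in the 4 libraries. That held for 9.76% of all genes. ACTN2 (-0.42) was lower and TNNI3 (2.44) higher, both without passing. NKX2-5 was at 9.49 CPM in SiCIRBP_2, above every NC library, and its log2 fold change over all 6 was -0.36 (SE 0.45). The 8 fibroblast markers were all detected and summed to 6433 to 6760 CPM in NC, 6727 and 7146 in SiCIRBP_2 and SiCIRBP_1 and 10640 in SiCIRBP_3. Of the 8, only COL1A1 (0.87) was past the threshold and higher in the 4 libraries, as were 9.62% of all genes. DESeq2 called 0 of the 8 there. COL1A1 was at 1629 CPM in SiCIRBP_2, below every NC library, and had 0.41 (SE 0.36) over all 6. PDGFRB (-0.23) was lower without passing. The part of these markers in the tubulin values was not tested. The 8 neuronal markers summed to 3.33 to 5.215 CPM in NC and to 4.86, 10.7 and 8.12 in SiCIRBP replicates 1, 2 and 3. Of the 4 tested in the 4 libraries, 2 were above 0, 2 below, and 0 passed the threshold. GAP43 (0.97) was at 0.561 to 1.40 CPM in NC and 0.993, 8.13 and 3.60 in SiCIRBP replicates 1, 2 and 3. In such bulk samples, a change in the number of cells of a type and a change in RNA per cell cannot be told apart.

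Between NC and SiCIRBP, tubulin mRNA was higher after knockdown over much of the family. In the 4 libraries that the study compared (NC_2, NC_3, SiCIRBP_1 and SiCIRBP_3), all 10 genes had a log2 fold change above 0, and the median was 0.81, against -0.0020 over the 15421 genes tested. With edgeR's quasi-likelihood test fitted over all genes, 7 of the 10 were past an adjusted p-value of 0.05 and higher in SiCIRBP, and 0 were lower. Among all genes tested, 9.62% were past it and higher and 9.76% were past it and lower. TUBA4A, TUBA1C, TUBB4B and TUBB3 were also at least 2-fold higher, which held for 1.82% of all genes. All 10 passed the filter on low counts. Since the family was chosen on this contrast, nothing is read from these counts. DESeq2 on the same 4 libraries called 8 of the 10 as higher, where it called 10.7% of all genes as higher and 11.9% as lower.

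With all 6 libraries, edgeR called 0 of the 10 genes at this threshold and 0 of 15217 genes in all (smallest adjusted p = 0.0853), although 6 of the 10 had an unadjusted p-value under 0.05, as had 3603 of all genes. DESeq2 over the 6 libraries called 6 of the 10, all higher (TUBA1B, TUBA1C, TUBA4A, TUBB2A, TUBB3 and TUBB6), where it called 4.48% of all genes as higher and 5.04% as lower. With the replicate number as a block over the 6 libraries, edgeR called 0 of the 10 and 0.00657% of all genes as higher. The median log2 fold change of the 10 was 0.64 over the 6 libraries in edgeR. In 7 genes the normalized count (CPM) was higher in all 3 SiCIRBP libraries than in all 3 NC libraries (TUBA1B, TUBA1C, TUBA4A, TUBB, TUBB2A, TUBB3 and TUBB6), and 16.2% of 15217 genes were separated in that direction.

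**Figure D1:**
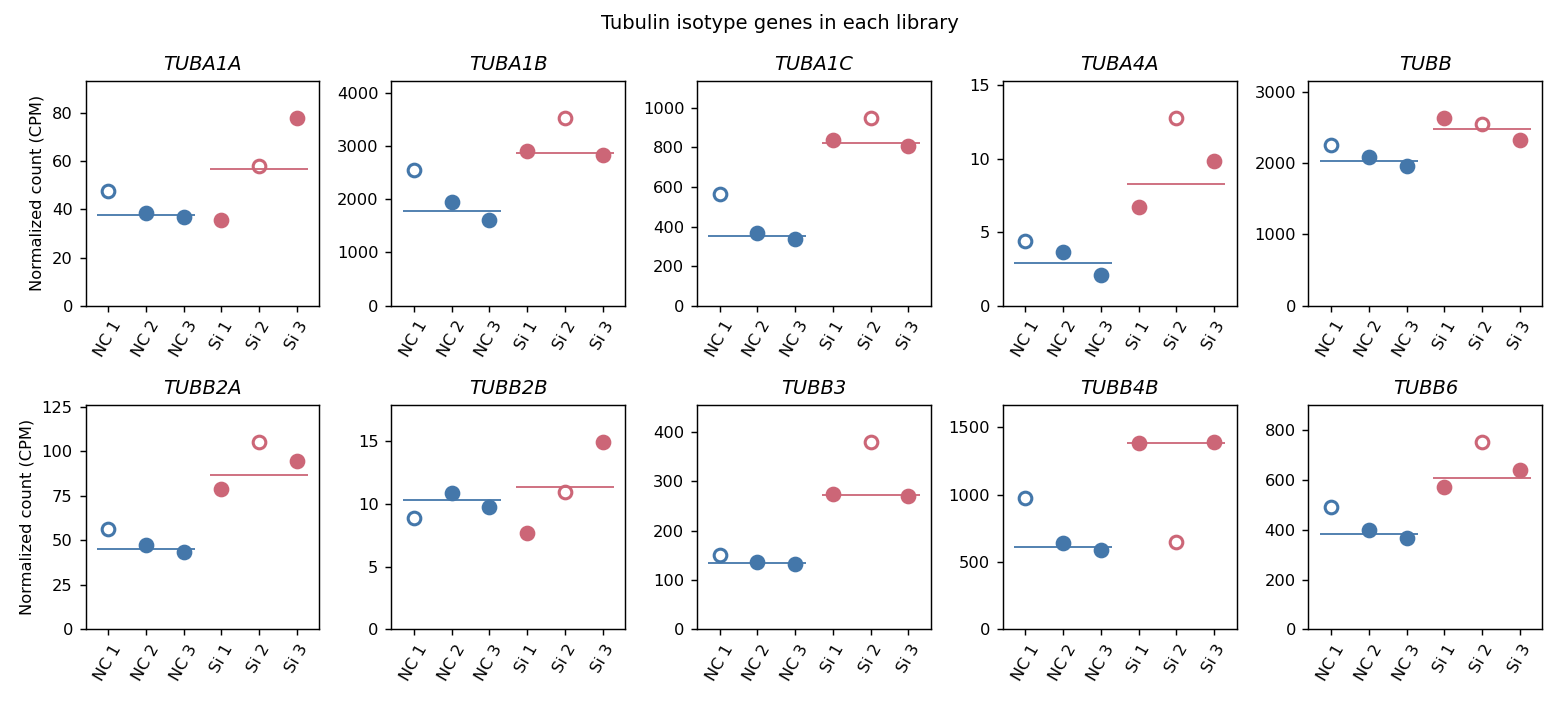
Normalized count (CPM, linear axis from 0, its own scale in each panel) of the 10 tubulin genes in NC (blue) and SiCIRBP (red, Si) libraries. Filled points are the 4 libraries the study compared, with a line at their mean, and open points are NC_1 and SiCIRBP_2. The groups do not overlap in 7 panels, and TUBB4B in SiCIRBP_2 (646 CPM) sits among the NC libraries.

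TUBA1C, a widely expressed alpha isotype, was the gene that drew attention to the family. NC_2 and NC_3 held it at 370 and 335 CPM, whereas SiCIRBP_1 and SiCIRBP_3 held it at 835 and 805.5, and the log2 fold change was 1.22 (standard error, SE, 0.08). The libraries not used in that comparison had 564.5 CPM (NC_1) and 946 (SiCIRBP_2). NC_1 was at 1.602 times the mean of the other NC libraries and below every SiCIRBP library, and SiCIRBP_2 was the highest of all 6. The ratio of SiCIRBP_2 to NC_1 was 1.68, with 1 library on each side and no test. In TPM, which takes account of transcript length, TUBA1C was at 719 ± 192 (SD, n = 3) in NC and 1314 ± 15.5 (SD, n = 3) in SiCIRBP.

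TUBA1B, the most abundant tubulin gene here, had 1950 CPM in NC_2, 1615 in NC_3 and 2552 in NC_1. The SiCIRBP libraries had 2911, 3515 and 2824 for replicates 1, 2 and 3. NC_1 came close to the SiCIRBP values, and the groups did not overlap. The log2 fold change was 0.69 (SE 0.11) over the 4 libraries and 0.60 (SE 0.18) over all 6.

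TUBA4A was the alpha isotype at the lowest level, with 64.1 to 125 counts in the NC libraries and 195 to 327 in the SiCIRBP libraries. Its normalized count was 3.66 CPM in NC_2, 2.10 in NC_3 and 4.37 in NC_1, and 6.69, 12.7 and 9.80 in SiCIRBP replicates 1, 2 and 3. It had the highest log2 fold change of the 10 genes, 1.53, and also one of the widest SE values, 0.32. TUBA1A gave no such separation. It was at 35.7 CPM in SiCIRBP_1, below all 3 NC libraries (36.95 to 47.5), but at 57.9 in SiCIRBP_2 and 77.7 in SiCIRBP_3. Its log2 fold change of 0.59 (SE 0.32) therefore rests on SiCIRBP_3 and turned to -0.08 without it.

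Among the beta genes, TUBB4B split the SiCIRBP libraries. It was at 642 CPM in NC_2 and 585 in NC_3 and at 1380 in SiCIRBP_1 and 1388 in SiCIRBP_3, a log2 fold change of 1.17 (SE 0.08). In SiCIRBP_2, however, it was at 646, next to NC_2 and below the 973 of NC_1. SiCIRBP_2 had 0.467 times the mean of the other SiCIRBP libraries for TUBB4B, whereas for the remaining 9 members it had between 0.967 and 1.54 times that mean. With all 6 libraries the log2 fold change of TUBB4B was 0.63 (SE 0.31).

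TUBB3 is the beta isotype by which neurons are recognised. Its level was 136 CPM in NC_2, 133 in NC_3 and 151 in NC_1. The SiCIRBP libraries had 275, 379 and 271 for replicates 1, 2 and 3, all above every NC library. The log2 fold change was 1.02 (SE 0.07) over the 4 libraries and 1.14 (SE 0.16) over all 6, and the ratio of SiCIRBP_2 to NC_1 was 2.50. A locus that joins TUBB3 to the gene upstream of it, AC092143.1, holds 35.3% of the 31-base words in TUBB3 transcripts, but it had at most 42.8 counts in any library.

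TUBB2A was at 47.6, 43.2 and 56.4 CPM in NC_2, NC_3 and NC_1 and at 79.1, 105 and 94.3 in SiCIRBP replicates 1, 2 and 3, with a log2 fold change of 0.93 (SE 0.12). Its near copy TUBB2B was at 8.91 to 10.9 CPM in the NC libraries and at 7.72, 10.95 and 14.9 in the SiCIRBP libraries, which overlap. The log2 fold change of TUBB2B was 0.14 (SE 0.29), and it was -0.42 without SiCIRBP_3 and 0.53 without SiCIRBP_1. These neighbours share more sequence than any other pair, so their counts are uncertain.

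TUBB6, a beta isotype found mainly outside the nervous system, was at 400 CPM in NC_2, 368 in NC_3 and 490.5 in NC_1. It reached 573, 752 and 641 in SiCIRBP replicates 1, 2 and 3. All 3 lay above NC_1, and the log2 fold change was 0.66 (SE 0.09). TUBB, a widely expressed beta isotype, had the smallest difference among the abundant members. It was at 1964 to 2256 CPM in the NC libraries and 2318 to 2626 in the SiCIRBP libraries, which do not overlap, with a log2 fold change of 0.29 (SE 0.09) that did not pass the threshold. In TPM the groups overlap for TUBB, with 1287 in NC_1 above 1243 in SiCIRBP_2 and 1274 in SiCIRBP_3.

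**Figure D2:**
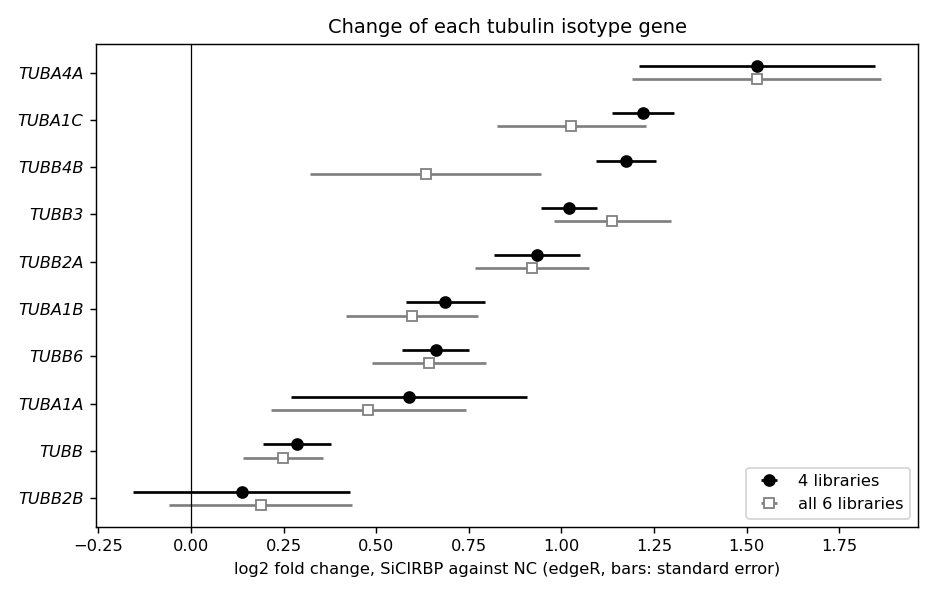
Log2 fold change of SiCIRBP against NC from edgeR for each tubulin gene, with bars of 1 standard error, over the 4 libraries the study compared (filled circles) and over all 6 (open squares). TUBA4A, TUBA1C, TUBB4B and TUBB3 lie above 1 in the 4 libraries, and TUBB4B falls to 0.63 with all 6.

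Levels of different genes were compared in TPM, so their order depends on the length assigned to each gene. Over the 6 libraries the order of mean TPM was TUBA1B (2431), TUBB (1266), TUBA1C (1016), TUBB4B (892), TUBB6 (490.1), TUBB3 (192), TUBB2A (75.98), TUBA1A (44.4), TUBB2B (40.5) and TUBA4A (5.53). Within the NC libraries, the ranges of TUBA1C and TUBB4B overlapped, and so did those of TUBA1A and TUBB2B, while all other neighbours in this order were separated. In the SiCIRBP libraries this order did not hold throughout. TUBB was at 1243 to 1438 TPM there, TUBA1C at 1297 to 1327 and TUBB4B at 543 to 1317, so that these ranges overlap, and that of TUBB4B also reaches into that of TUBB6. In CPM, which takes no account of length, TUBA1C was below TUBB4B in NC_2 (370 and 642) and SiCIRBP_1 (835 and 1380). In SiCIRBP_2, TUBA1C was above TUBB4B (946 and 646). TUBB2B and TUBA1A, close in TPM, had means of 10.3 and 37.7 CPM over NC_2 and NC_3. The 10 genes together made up 0.465% to 0.648% of all TPM in the NC libraries and 0.714% to 0.776% in the SiCIRBP libraries.

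The summed alpha level was 2633 TPM in NC_2, 2292 in NC_3 and 3509 in NC_1, and it was 4124, 4334 and 4090 in SiCIRBP replicates 1, 2 and 3. Over the 4 libraries the SiCIRBP mean was 1.67 times the NC mean. The summed beta level was 2422, 2362 and 2976 TPM in NC_2, NC_3 and NC_1 and 3633, 2810 and 3539 in the SiCIRBP libraries, a ratio of 1.499 over the 4 libraries. SiCIRBP_2, where TUBB4B was low, had a summed beta level below that of NC_1 in TPM. In CPM the order of these libraries was reversed, with 4443 in SiCIRBP_2 and 3936 in NC_1. The summed beta CPM was 3103 to 3936 in NC and 4443 to 4941 in SiCIRBP. In TPM, the ratio of summed alpha to summed beta was 0.970 to 1.18 in 5 libraries and 1.54 in SiCIRBP_2.

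The make-up of the alpha level differed between the groups. TUBA1C made up 25.4% ± 1.30 (SD, n = 3) of it in NC and 31.4% ± 0.91 (SD, n = 3) in SiCIRBP, and TUBA1B made up 73.1% ± 1.25 and 67.2% ± 1.01 (SD, n = 3 each). The lowest SiCIRBP share of TUBA1C, 30.4%, was above the highest NC share, 26.7%. In CPM, which takes no account of length, TUBA1C made up less of the alpha level. It was 370 of 2362 CPM in NC_2, 335 of 1989 in NC_3 and 564.5 of 3168 in NC_1. The SiCIRBP libraries had 835 of 3789, 946 of 4532 and 805.5 of 3717 for replicates 1, 2 and 3. In the beta level, TUBB made up 47.2% ± 3.45 in NC and 39.9% ± 4.14 in SiCIRBP with overlapping ranges, and TUBB3 made up 5.00% ± 0.38 in NC and 7.88% ± 2.14 in SiCIRBP (SD, n = 3 each) without overlap. The TUBB3 share was 6.555%, 10.4% and 6.74% in SiCIRBP replicates 1, 2 and 3, and SiCIRBP_2 was the library in which TUBB4B was low. These shares in percent use TPM from the same contrast, depend on the length assigned to each gene and carry no test.

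**Figure D3:**
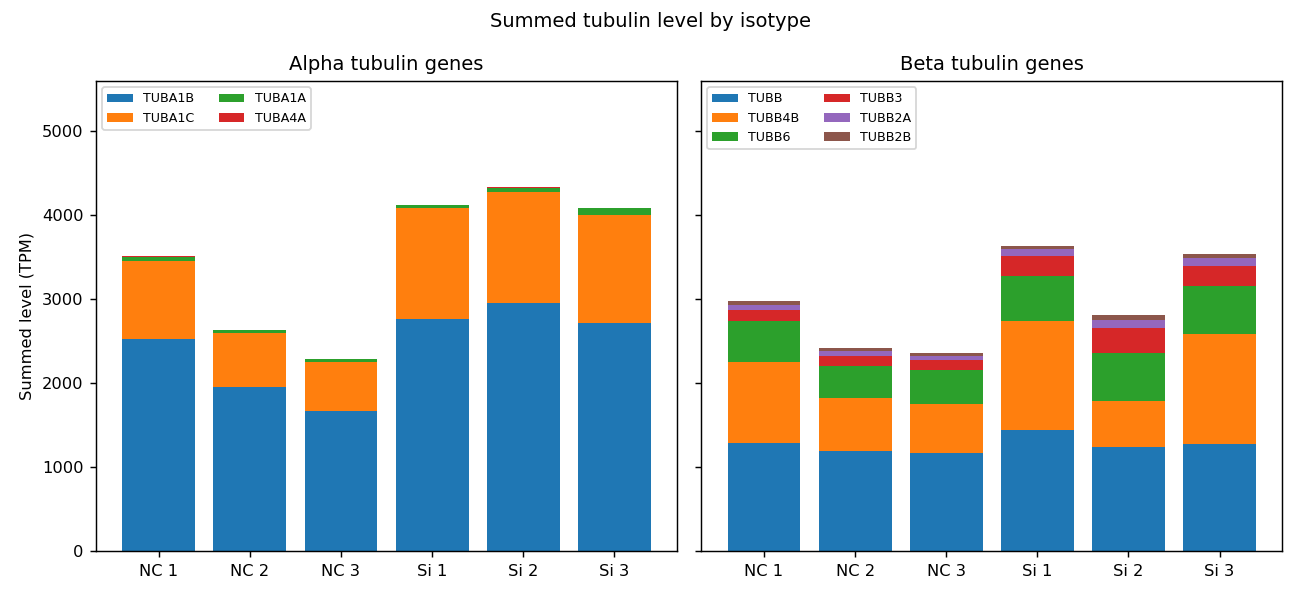
Summed TPM of the 4 alpha genes (left) and the 6 beta genes (right) in each library, on a linear axis from 0, with each isotype as a coloured part of the bar. The alpha bars of the SiCIRBP libraries (Si) reach 4090 to 4334 TPM against 2292 to 3509 in NC, and the beta bar of SiCIRBP_2 (2810) is below that of NC_1 (2976).

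Because the isotypes are alike, the sequence that their transcripts share was counted. Of the distinct 31-base words in the annotated transcripts of a gene, those found in no other gene on either strand made up 80.5% for TUBB4B, 79.1% for TUBB6, 77.5% for TUBA4A, 67.1% for TUBB and 63.7% for TUBB3. The share was 60% for TUBA1C, 58.1% for TUBA1A and 56.3% for TUBA1B, and it was lowest for TUBB2B (44.1%) and TUBB2A (36.5%). TUBB2A shared 57.8% of its words with TUBB2B. TUBA1C shared 16.8% with TUBA1B and 15.1% with TUBA1A on the same strand.

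Genes on the opposite strand overlap some of the members, and whether the counting used strand is not stated. AC125611.3 lies opposite TUBA1C and holds 12.9% of its words, and it was at 51.7 to 81.5 CPM in NC and 126 to 148 in SiCIRBP. AC011603.2 lies opposite TUBA1B and holds 33.2% of the TUBA1B words, and it was at 79.97 to 101 CPM in NC and 142 to 229 in SiCIRBP. Without strand, reads from the stretches they share with TUBA1C and TUBA1B cannot be told apart. TUBA1A and TUBA1C also share words with each other on opposite strands, 12.7% and 9.32% of their own. AC125611.3 and AC011603.2 had log2 fold changes of 1.34 and 0.96, both past the threshold. STK16, opposite TUBA4A, and AFG3L2, opposite TUBB6, had log2 fold changes of -0.11 and 0.16, which did not pass it. Nor did AL662797.1 (0.19), which holds 15.1% of the TUBB words, PSMG4 (0.39) opposite TUBB2B, AC092143.2 (0.62) opposite TUBB3, or AC010173.1 (0.07) opposite TUBA1C. FAM166A, opposite TUBB4B, had at most 5 counts, TUBA4B had 0, and neither was tested. The pseudogene TUBBP1, which holds 21.2% of the TUBB words, had 0.11.

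The length that the deposited values assign to a gene, read as its count divided by its TPM and scaled to the median gene of the library, varied by gene. For TUBA1C it ranged from 0.342 to 0.357 over the 6 libraries and for TUBA1B from 0.577 to 0.590. The highest value was 1.04 times the lowest for TUBA1C, against a median of 1.11 over all genes with enough counts, and for TUBB6 it was 1.15 times. For TUBB2B and TUBA4A it was 1.72 and 1.40 times the lowest, so that levels in TPM and in CPM differ more for these. TUBA1C was assigned a shorter length than TUBA1B, although its principal transcript has 3001 bases and that of TUBA1B 1627. TUBB2B had values of 0.104 to 0.179, with a principal transcript of 2020 bases. Orders, sums and shares in TPM rest on these assigned lengths.

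Among the tubulin genes outside the 10, TUBA3C, TUBA3D, TUBA3E, TUBAL3 and TUBB8 had at most 10 counts in any library and were not tested. TUBA3C had 0 counts in all 6 libraries, which allows up to 3 counts, or 0.117 CPM in NC_2, by counting error alone. TUBB4A was past the threshold at 1.15 (SE 0.23), with 2.29 and 3.12 CPM in NC_2 and NC_3 and 6.22 and 5.80 in SiCIRBP_1 and SiCIRBP_3, but NC_1 (3.89) was above SiCIRBP_2 (3.62), so that the groups overlap. TUBB1, the platelet isotype, was also past it at 2.06 (SE 0.49), but it had only 4.01 to 21.2 counts. TUBA8 had 0.47 and did not pass.

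Of the 4 gamma, delta and epsilon tubulin genes tested, 1 passed the threshold. TUBE1, the epsilon tubulin of centrioles, was at 19.65 CPM in NC_2, 22.1 in NC_3 and 10.65 in NC_1, and at 9.55, 6.88 and 5.91 in SiCIRBP replicates 1, 2 and 3. Every SiCIRBP value was below every NC value, and the log2 fold change of -1.43 (SE 0.23) was past the threshold. TUBG1 and TUBG2, the gamma tubulins that nucleate microtubules, had 0.09 and -0.08, and TUBD1, the delta tubulin, had 0.44, none of which passed. In the gamma-tubulin ring complex as a whole, edgeR and DESeq2 each called 0 of 11 genes over the 4 libraries, and 3 had an unadjusted p-value under 0.05 in edgeR, as had 5651 of all 15421 genes. The changes of largest size in that complex were those of TUBGCP6 (-0.35) and TUBGCP3 (-0.31).

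Counts in the lists of microtubule genes described next are read beside all 15421 genes tested, of which 9.62% were past the threshold and higher, 9.76% were past it and lower and 5651 had an unadjusted p-value under 0.05, and no list was tested against the rest. With all 6 libraries edgeR called 0 of 15217 genes, so none of the lists could hold a gene past the threshold there. Newly made tubulin is handed from prefoldin to the CCT chaperonin, and then to the cofactors TBCA to TBCE. Of 14 prefoldin and CCT genes, 2 were past the threshold and higher, CCT5 and CCT6A, with a log2 fold change of 0.45 each, and 0 were lower by edgeR or DESeq2, with 6 at an unadjusted p-value under 0.05. The median of the 14 was 0.18. Of 7 cofactor genes, 1 was lower, TBCEL at -0.55, and the median was -0.09. TBCEL was at 26.7 CPM in SiCIRBP_2, above every NC library, and TBCC had 0.38 without passing.

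Of the 3 genes that act in tubulin mRNA autoregulation, SCAPER, the adaptor between TTC5 and the deadenylase complex, was lower and past the threshold. It was at 9.28 CPM in NC_2, 10.9 in NC_3 and 7.29 in NC_1, and at 5.75, 4.55 and 6.20 in SiCIRBP replicates 1, 2 and 3, with a log2 fold change of -0.76 (SE 0.17). The groups did not overlap. TTC5, named here after its values were seen, was at 27.3 to 28.6 CPM in NC and 19.4 to 23.7 in SiCIRBP, also without overlap, with a log2 fold change of -0.36 (SE 0.13) that did not pass. The third gene, CNOT11, a subunit of that complex, had 0.30 (SE 0.10), in the opposite direction, and did not pass either. Among all genes, 16.6% had every SiCIRBP library below every NC library.

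Of 19 tubulin-modifying enzymes tested, 0 were past the threshold and higher by edgeR or DESeq2 over the 4 libraries and 3 were lower (4 had an unadjusted p-value under 0.05), among them the glycylase TTLL3 at -0.67 (SE 0.16). The median of the 19 was 0.03, and 10 had a log2 fold change above 0. Of 26 microtubule-associated and plus-end proteins, 2 were higher and 4 lower, with a median of -0.12. CLIP2, a plus-end linker protein, was at 154.5 and 187 CPM in NC_2 and NC_3 and at 89.1 in NC_1, against 73.8, 32.1 and 60.4 in SiCIRBP replicates 1, 2 and 3, a log2 fold change of -1.35 (SE 0.14). EML2, another microtubule-binding protein, had -1.34 (SE 0.21). Of 11 destabilising and severing genes, 1 was past the threshold and higher, and the changes of largest size, FIGN at -0.58 and STMN3 at 0.49, did not pass.

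The deposited table annotates 87 genes directly with the microtubule-based process, of which 41 were tested. Of these, 16 were past the threshold and higher and 3 lower, beside 9.62% and 9.76% of all genes, and the 16 include the 7 isotypes. Without the 10 isotypes, 31 remained, with 9 higher and 3 lower and a median log2 fold change of 0.18. Both antisense genes named above, AC125611.3 and AC011603.2, are among these 9. This annotation had stood out in the earlier comparison of the same libraries, so nothing is read from these counts, with or without the isotypes. The 4 changes of largest size among the 31 were those of TUBB1, NEK10, a kinase, at 1.87, TUBE1 and AC125611.3, and NEK10 had 0.459 to 2.60 CPM.

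**Figure D4:**
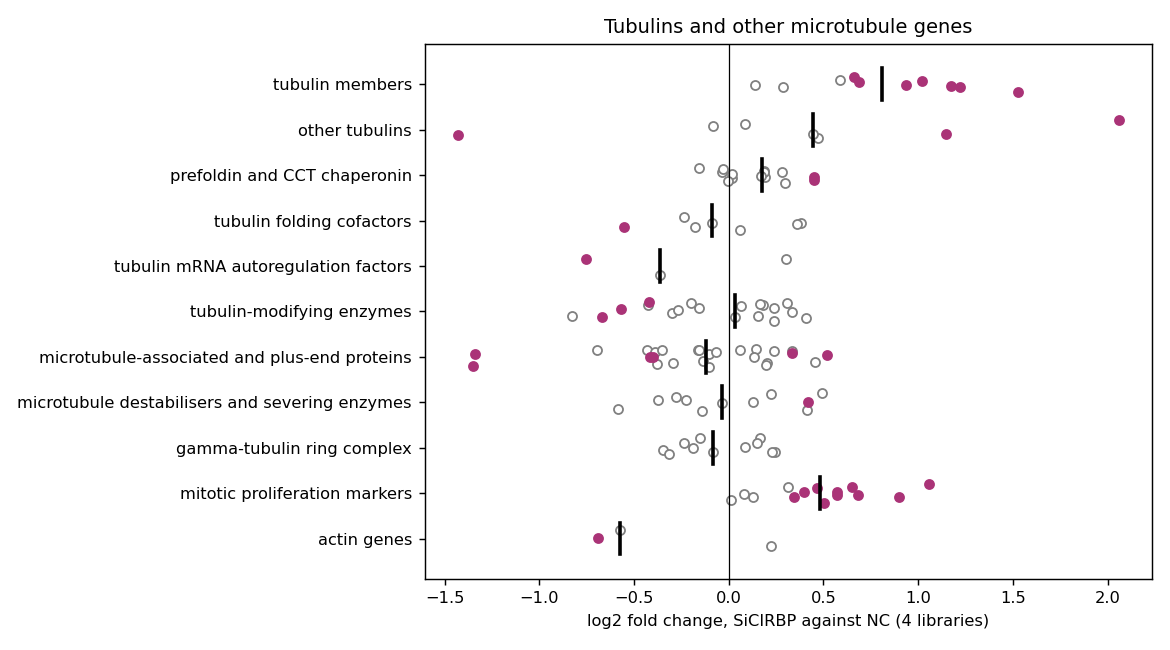
Log2 fold change of SiCIRBP against NC over the 4 libraries for the genes of each list. Each point is a gene, filled where the edgeR adjusted p-value is under 0.05, and the bar marks the median of the list. The isotypes have a median of 0.81, the mitotic markers 0.48 and the gamma-tubulin ring complex -0.08.

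In the 4 libraries, markers of dividing cells moved in the direction of the tubulins, and their part in the tubulin values was not tested. Of 14 mitotic markers, 10 were past the threshold and higher in SiCIRBP over the 4 libraries and 0 were lower, with a median of 0.48, and all 14 had a log2 fold change above 0. Of all genes, 9.62% were past it and higher and 9.76% lower. The largest were AURKA at 1.06, KIF20A at 0.90, CCNB1 at 0.68 and PLK1 at 0.65. The smallest were CDK1 at 0.13, CENPF at 0.08 and TOP2A at 0.01. With all 6 libraries, edgeR called 0 of the 14, as it called 0 of 15217 genes in all. DESeq2 over the 6 libraries called 2 of the 14 as higher, where it called 4.48% of all genes as higher. The median of the 14 was then 0.33 in edgeR, with MKI67 (-0.02), CENPF (-0.18) and TOP2A (-0.22) below 0. The sum of the 14 was 2553 CPM in NC_2, 2337 in NC_3 and 3161 in NC_1, and 3408, 3134 and 3478 in SiCIRBP replicates 1, 2 and 3, so NC_1 exceeded SiCIRBP_2. MKI67, a marker of cycling cells, was at 143 CPM in SiCIRBP_2 and 347 to 523 in the other 5 libraries. Of the actin genes, ACTG1, which encodes the cytoplasmic gamma actin, was lower at -0.69 (SE 0.09) and ACTB had 0.22 without passing. ACTB was at 5148 to 5388 CPM in NC and 6133 to 10260 in SiCIRBP. Over all 6 libraries ACTG1 had -0.66 (SE 0.17) and ACTB 0.52 (SE 0.20). ACTA2, at 0.958 to 6.53 CPM, had -0.58 over the 4 libraries without passing and 0.90 (SE 0.72) over all 6.

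Over the 6 libraries, the genes most like TUBA1C in log2(CPM + 1), among 9437 genes, were EWSR1, GINS1, SOD1, C7orf43 and IRF3, with Pearson correlations of 0.997 to 0.999. EWSR1 was at 198 and 185 CPM in NC_2 and NC_3, 266 in NC_1 and 337 to 366.5 in the SiCIRBP libraries. The genes most like TUBB were HDGF, NHP2, TAF15, AP2M1 and GLRX5, with 0.992 to 0.997. The points are 6 libraries that fall by treatment, and with so many genes compared the highest values are a description only.

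Promoters are shown for TUBA1C and TUBB4B, which were over 2-fold higher together in SiCIRBP_1 and SiCIRBP_3 but parted in SiCIRBP_2. The 250 bases before a RefSeq start (GRCh38.p14) are given on the plus strand, the strand of both genes, with CCAAT or its reverse complement ATTGG in capitals. They lie at chr12:49264832-49265081 for TUBA1C, before the start nearest its coding sequence, and at chr9:137241037-137241286 for TUBB4B.
TUBA1C: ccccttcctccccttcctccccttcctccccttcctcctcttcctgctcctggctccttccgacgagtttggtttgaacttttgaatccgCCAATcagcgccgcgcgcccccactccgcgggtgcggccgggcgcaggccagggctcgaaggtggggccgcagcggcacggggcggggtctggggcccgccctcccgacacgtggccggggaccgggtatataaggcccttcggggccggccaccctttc
TUBB4B: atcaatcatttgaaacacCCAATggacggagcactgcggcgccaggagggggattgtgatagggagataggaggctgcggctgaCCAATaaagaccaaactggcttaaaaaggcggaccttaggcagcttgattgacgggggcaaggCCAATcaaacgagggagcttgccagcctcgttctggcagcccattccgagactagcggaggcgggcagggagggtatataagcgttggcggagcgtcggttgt
These letters were found once before the TUBA1C start and 3 times before that of TUBB4B. Windows of 300 bases, which run 50 bases past the start, were then searched on both strands. Of 15 windows annotated for the 10 genes, some of which overlap, 9 held CCAAT on either strand (60%), and 7 of the 10 genes had it in at least 1 window. Among 35116 windows of all genes, 34.6% held it. GGGCGG was found in 9 of the 15 windows, against 45% of all, TTTGAA in 4, against 15.2% of all, and TATAAA in 1, against 11.5% of all. TTTGAA was present in all 3 windows of TUBA1C and in that of TUBB4B. These matches are letters in a window and were not tested as binding sites.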

How the data were processed

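RNA-seq libraries of NC (n = 3) and SiCIRBP (n = 3) cells were grouped by the labels. The authors deposited estimated counts per gene, not normalized, and TPM values, in which these counts are divided by an assigned transcript length and scaled per library. The submitters' processing notes name fastp, HISAT, RSEM and hg38, and the versions are not given in the sources used here. The deposited fold changes and p-values of the authors were not used.

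Counts were rounded and tested in edgeR 4.0.16 (R 4.3.3) with TMM normalization, filterByExpr, the quasi-likelihood test and Benjamini-Hochberg adjustment over all genes, on the 4 libraries the study kept. SE values were derived from each log2 fold change and its F statistic (absolute value over root F). CPM values use TMM factors over 6 libraries. DESeq2 1.42.0, RLE factors, other filters and log2(TPM + 0.1) were tried as alternatives, as were fits to all 6 libraries, with and without a replicate block, and fits leaving out 1 library. Fits with NC_1 or SiCIRBP_2 added to the 4 libraries were chosen after seeing the data. The procedure was tested on simulated data in which 200 genes changed by a log2 of 1.5. Every gene had the same spread there and no library deviated, so it does not show how the procedure performs on these libraries. Members and lists were chosen with earlier results of these data known. Named are the 10 members, the other tubulins, and of each microtubule list the genes past the threshold with a change of at least 1.5-fold (at most 4) or, with none, the 2 of largest change, together with overlapping genes other than small structural RNAs, and the 5 genes most like TUBA1C and TUBB. The same rule was applied to the mitotic markers, and some of these and some cell type markers are named outside it. Locations and shared words use GENCODE 29, on the build of the labels, and promoters RefSeq, where all 10 genes matched. Totals of 25726259 to 29919566 counts make counting error small for abundant isotypes but not for TUBA4A, TUBB2B or TUBB1. The coding ends of the alpha genes are not reported here.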

Additional observations from a re-analysis of the deposited data

How the results depend on the processing

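The direction of TUBA1B, TUBA1C, TUBA4A, TUBB, TUBB2A, TUBB3, TUBB4B and TUBB6 was the same in all 14 alternatives run for each, whereas TUBA1A and TUBB2B changed sign without SiCIRBP_3 (-0.08 and -0.42). The 7 tubulin genes past the threshold became 0 with all 6 libraries, 0 with the replicate block over 6 libraries and 0 with SiCIRBP_2 added to the 4, but 6 with NC_1 added, 8 in DESeq2 over the 4 libraries and 6 in DESeq2 over 6. With 1 library left out, 3 (without NC_3) to 10 (without SiCIRBP_1) were higher, 4 without NC_2, and 0 to 1 were lower, the 1 being TUBB2B without SiCIRBP_3. Their median log2 fold change, 0.81, was 0.64 with all 6 libraries, 0.63 with the block, 0.64 in DESeq2 over 6 and 0.68 with NC_1 added, and 0.73 to 1.02 with 1 library left out. Over the hand-made microtubule lists together, with the other tubulins but without the mitotic markers or the GO annotation, 7 genes were higher and 10 lower. These were 0 and 0 with all 6 libraries, with the block and with SiCIRBP_2 added, 0 and 3 with NC_1 added, 1 and 6 in DESeq2 over 6, 12 and 18 with no filter on low counts, and 0 to 24 (higher) and 1 to 28 (lower) with 1 library left out. The fits without SiCIRBP_1 or SiCIRBP_3 took the spread from the NC pair alone, the remaining SiCIRBP library being assumed to vary like it, and called 7048 and 6418 genes in all against 2989, while those without NC_2 or NC_3 called 168 and 64. The summed alpha ratio, 1.67, was 1.49 with all 6 libraries and 1.56 to 1.79 with 1 left out, and the beta ratio, 1.499, was 1.29 and 1.48 to 1.52. The cause of these shifts was not tested. Libraries of the same number did not deviate together (correlations of -0.118, 0.006 and -0.026 for replicates 1, 2 and 3), and the 4 libraries share only number 3, so that the replicate block could be fitted only over 6. TUBA4A and TUBB1 are limited by depth.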
